A study of Mus musculus with 6 samples.

Results

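The genes described here encode enzymes that add methyl groups to histone lysines (writers) or remove them (erasers), and the core subunits that some writers need. The members were a fixed list of 48 gene symbols, matched through the GENCODE M21 annotation to 48 of the 54532 genes in the expression table. The rule names symbols and sets no threshold on a measured value, but the list was drawn up with earlier results of these data known. The list leaves out Kdm1a, the gene deleted in this study, its relative Kdm1b, and Smyd1. By target residue it holds 28 writers, 15 erasers and 5 SET-domain genes with other or several substrates.

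Methyl groups on histone H3 carry different information at different lysines. Methylation of lysine 4 marks active promoters and enhancers, methylation of lysine 36 follows transcribed gene bodies, and methylation of lysines 9 and 27 goes with silenced chromatin. Writers mostly use a SET domain, and most erasers are JmjC-domain oxygenases, whereas LSD1, the product of Kdm1a, is a flavin-dependent eraser of H3K4 mono- and dimethylation. In the embryonic heart several of these enzymes, among them Ezh2, Kmt2d, Nsd2 and Dot1l, are known to be needed for normal development.

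RNA was sequenced from the heart ventricles of mouse embryos at E12.5, with 3 control libraries (labelled CTL) and 3 libraries of an LSD1 conditional knockout. The sources used here do not give the Cre line, the cell type in which the gene was deleted or the alleles that the controls carried, nor whether the samples of a group were separate embryos, so p-values measure only the spread between these samples. The series title concerns repression of Cend1 by LSD1 in heart development, and the comparison here asks whether transcripts of the other lysine methylation enzymes differed when LSD1 was removed. Values are FPKM, a level per gene length and library size, so levels can be compared between genes whose exons overlap little with other genes. Dividing reads by FPKM and length gives the total each library was scaled to, which equalled 0.943 to 0.968 times the recovered reads in control and 0.982 to 1.005 in knockout libraries, so the values were not scaled by summed reads. Scaling by summed reads would raise each log2 difference between knockout and control FPKM by 0.056, which is close to the size of many differences given here.

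Kdm1a itself checked the labels. It stood at 29.99, 29.73 and 22.80 FPKM in the control libraries and at 10.71, 11.77 and 10.96 FPKM in the knockout libraries, so the groups did not overlap (ratio 0.405, log2 change -1.22, SE 0.11, limma adjusted p = 0.00274). Libraries held between 17898946 and 20076028 reads, as recovered from the spacing of the FPKM values. Cardiomyocyte markers were abundant, with summed levels of 6029 to 6809 FPKM in control and 5995 to 6390 FPKM in knockout libraries, and lung markers summed to at most 0.253 FPKM in any library. Of the 10 proliferation markers, 8 had a log2 change below 0 (median -0.05), with summed levels of 492 to 578 FPKM in control and 491 to 529 FPKM in knockout libraries. The 6 endothelial markers were all above 0 in log2 change, with sums of 112 to 160 FPKM and 131 to 165 FPKM. Erythroid markers summed to 6884 to 15570 FPKM in control and 6987 to 14010 FPKM in knockout libraries, and neural crest and Schwann precursor markers to 26.6 to 44.5 and 43.4 to 48.6 FPKM. No gene of these 6 marker lists passed the test. Single markers set some libraries apart. Control replicate 3 had the lowest Actn2, 178 FPKM against 314 and 345 FPKM in the other controls, and the lowest Myh6, 106 FPKM against 177 and 206 FPKM. This library also stood apart over all tested genes. When limma weighted libraries by their spread, its weight was 0.462, against 0.986 to 1.41 in the others. Knockout replicate 1 had 5.24 FPKM of Sox10 and 1.98 FPKM of Foxd3, where no other library had more than 0.611 and 0.0669 FPKM. Their part in the members' values was not tested, and for members described library by library, a log2 change that moved by over 1.5 times without 1 library is given. Knockout replicate 3 had 0 reads of the Y-linked demethylase genes Kdm5d and Uty, which the other 5 libraries all had. A sex score, the log2 level of Xist minus the mean log2 level of Y-linked genes, was 3.71 in knockout replicate 3. It was -1.80 in knockout replicate 1 and lay between -2.85 and -2.80 in each remaining library. Only knockout replicate 3 thus had the pattern of a female sample, so sex was not balanced between the groups. In whole ventricles, fewer cells of a type and less RNA per cell cannot be told apart.

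No member passed the test in either direction. Of the 48 genes, 47 had a mean of at least 0.5 FPKM and were tested, and Kdm4d was below that level. The limma test on log2(FPKM + 1), with p-values adjusted over all 14149 genes tested, called 0 of the 47 members higher and 0 lower, where it called 1.91% of all genes higher (270) and 0.466% lower (66). Unadjusted p-values under 0.05 were found for 3 of the 47 members, or 6.38%, against 16.1% of all genes. The 3 were Kdm3a, Dpy30 and Eed, all with lower means in the knockout. On reads recovered from the FPKM values, limma-voom also called 0 members, with a smallest adjusted p of 0.151 and 4 unadjusted p-values under 0.05 (Dpy30, Eed, Ash1l and Kdm3a).

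The differences were small in size as well. Log2 changes ran from -0.27 for Dpy30 to 0.24 for Ash1l, and the ratios of mean FPKM ran from 0.826 to 1.25. The median size of the log2 change, whatever its direction, was 0.076 over the members and 0.10 over all genes. The 95% interval of the log2 change lay within 1.5-fold in either direction for all 47 tested members. On recovered reads, which do not shrink the change of low genes, it did so for 45 of 47 members and lay within 2-fold for all 47. The exceptions were Ash1l, 1.27-fold higher with an interval of 1.03 to 1.57, and Kdm8, at 0.858-fold with an interval of 0.647 to 1.14. A miss of the threshold does not show that levels were equal, but these intervals bound how far apart the group means could lie given the spread between libraries.

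**Figure D1:**
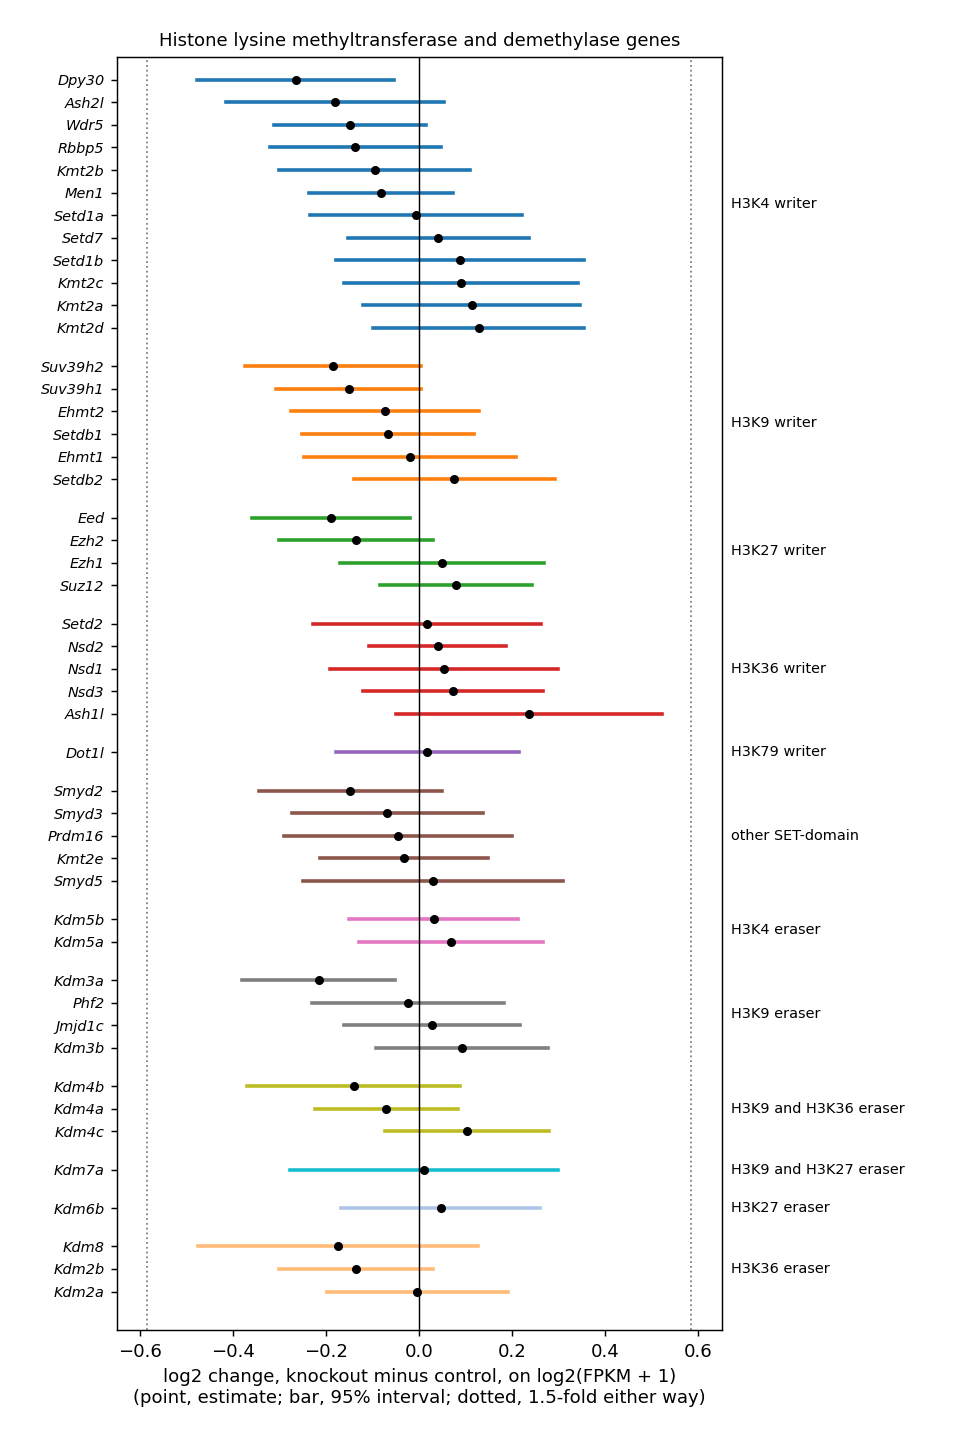
Log2 change between knockout and control ventricles on the log2(FPKM + 1) scale (x axis) for the 47 tested genes (y axis), grouped by target residue and by writing or erasing activity. Points are limma estimates, bars their 95% intervals, and dotted lines a 1.5-fold difference either way. The estimates lie between -0.27 (Dpy30) and 0.24 (Ash1l), and every bar stays inside the dotted lines.

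The direction was divided evenly. Of the tested members 22 had a log2 change above 0 and 25 below, or 53.2% below 0, against 54.1% of all genes, and the median was -0.01 for both. Writers were split 14 to 14 and tested erasers 7 to 7. In 6 of 47 members (12.8%) all knockout libraries were lower than all control libraries, as they were in 10.4% of all genes. These were Dpy30, Suv39h1, Suv39h2, Eed, Kdm3a and Kdm2b. The opposite pattern, with all knockout libraries higher, was found in 0 members and in 11% of all genes. The direction split depended on scaling, since 17 of 47 members were below 0 when the values were rescaled to TPM, where 34.4% of all genes were.

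Levels differed more between genes than between genotypes. Dpy30 was the highest, with a mean of 67.7 FPKM over the 6 libraries, followed by Smyd2 at 37.3 FPKM and Ehmt2 at 27.4 FPKM, and the library ranges of these 3 genes did not overlap. Kmt2c was the lowest tested member, with a mean of 1.08 FPKM, close to Prdm16 at 1.11 FPKM, and these neighbours overlapped. Writers had a median of 6.44 FPKM and tested erasers 5.02 FPKM. The reads behind a tested member numbered between 103 and 2979 per library. The median SD between libraries was 8.48% of the mean in control and 7.49% in knockout samples.

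The H3K4 writers fall into 2 roles. Their catalytic subunits are large proteins that carry the SET domain, and the core subunits Wdr5, Rbbp5, Ash2l and Dpy30 assemble with each of the Kmt2 and Setd1 enzymes and stimulate them. All 5 core or scaffold genes, Men1 included, had log2 changes below 0 (median -0.15), and 5 of the 7 catalytic genes had changes above 0 (median 0.09), with 0 called in either set. Core subunits were also the more abundant transcripts, at a median of 15.7 FPKM against 1.69 FPKM for the catalytic genes. The 5 core genes were below 0 under each of the 17 alternative settings tried, with medians from -0.20 to -0.07, and with TPM 6 of the 7 catalytic genes were above 0. Without knockout replicate 3, 4 of the 7 catalytic genes were above 0, and their median was 0.03 without control replicate 2. The proliferation markers given above were below 0 in 8 of 10 genes, and their part in this was not tested.

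Dpy30, whose small protein docks on Ash2l in these complexes, stood at 81.8, 64.6 and 76.0 FPKM in control libraries and at 62.0, 59.7 and 61.9 FPKM in knockout libraries. The groups did not overlap, but control replicate 2 lay close to the highest knockout library. The means were 74.1 ± 8.73 FPKM (SD, n = 3) and 61.2 ± 1.33 FPKM (SD, n = 3), a ratio of 0.826, and the log2 change was -0.27 (SE 0.09, limma adjusted p = 0.211). Its gene lies at chr17:74299474-74323944, minus strand, in the GRCm38 (mm10) coordinates used throughout. The other core genes had smaller differences. Ash2l had means of 11.7 ± 1.48 and 10.2 ± 0.816 FPKM (SD, n = 3 each), Wdr5 18.7 ± 1.26 and 16.7 ± 0.619 FPKM, and Rbbp5 9.55 ± 0.659 and 8.59 ± 0.633 FPKM in control and knockout. Men1, which encodes menin, the scaffold that ties Kmt2a and Kmt2b complexes to chromatin, had 16.2 ± 0.697 and 15.2 ± 0.785 FPKM. Their adjusted p-values by limma were 0.423, 0.348, 0.437 and 0.597 in that order.

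The catalytic H3K4 genes were low. Kmt2c and Kmt2d, which encode the main enhancer monomethylases, had control means of 1.01 ± 0.17 and 1.41 ± 0.228 FPKM and knockout means of 1.14 ± 0.159 and 1.62 ± 0.0707 FPKM (SD, n = 3 each). Setd1a and Setd1b, whose enzymes place most promoter H3K4 trimethylation, had log2 changes of -0.01 and 0.09. For Setd1a, 52.3% of exon bases lie under exons of other genes, and without strand in the library those reads cannot be told apart. Whether such reads were counted for any gene is not given in the sources used here. Pagr1a, not a member, has 98.7% of exon bases under other genes and was listed at 0 FPKM in every library. Levels of overlapped genes, Setd1a, Smyd2 and Kdm3b included, may therefore be understated, which was not tested. Kmt2a, the gene for the MLL1 enzyme, had 1.59 ± 0.27 and 1.79 ± 0.0981 FPKM, and its closest relative Kmt2b had 3.57 ± 0.38 and 3.27 ± 0.226 FPKM. Setd7, a monomethylase of H3K4 and of several non-histone proteins, was the most abundant of the catalytic set, at 6.59 ± 0.145 and 6.83 ± 0.734 FPKM (limma adjusted p = 0.856).

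The H3K9 writers showed 1 gene above 0 and 5 below, with a median log2 change of -0.07. This split depended on scaling, with 2 of the 6 below 0 (median 0.01) with TPM and 4 below 0 (median -0.00) when scaled without haemoglobin and mitochondrial genes. Suv39h2, whose enzyme trimethylates H3K9 in pericentric heterochromatin, stood at 3.35, 3.35 and 3.43 FPKM in control and at 3.12, 2.91 and 2.54 FPKM in knockout libraries, with no overlap. Its ratio was 0.846 (log2 change -0.19, SE 0.08, limma adjusted p = 0.318), and the unadjusted p was 0.0537. Suv39h2 lies at chr2:3455815-3475031, minus strand. Its X-linked partner Suv39h1 had means of 8.41 ± 0.388 and 7.47 ± 0.337 FPKM (SD, n = 3 each), also without overlap, and an adjusted p of 0.324 by limma. For Suv39h1, 14.6% of exon bases lie under exons of another gene. Ehmt2 and Ehmt1 encode G9a and GLP, which dimethylate H3K9 in euchromatin as a pair. Their log2 changes were -0.07 and -0.02, and Ehmt2 transcript was the more abundant, at 28.2 ± 2.85 FPKM in control libraries against 10.1 ± 1.03 FPKM for Ehmt1. Setdb1, the KAP1-linked silencer of retroelements, had a log2 change of -0.07, and Setdb2 had 0.08.

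The H3K27 writers make up Polycomb repressive complex 2. Eed, the subunit that binds trimethylated H3K27 and activates the enzyme, stood at 11.9, 12.1 and 11.5 FPKM in control and at 11.3, 9.81 and 9.74 FPKM in knockout libraries. Knockout replicate 1 lay just under the lowest control library, and the other knockout libraries lay further below. The means were 11.8 ± 0.318 and 10.3 ± 0.857 FPKM (SD, n = 3 each), and their ratio was 0.868 (log2 change -0.19, SE 0.07, adjusted p = 0.263 by limma). Eed lies at chr7:89954654-89980983, minus strand. The catalytic gene Ezh2 had 11.8 ± 0.748 and 10.7 ± 0.486 FPKM (log2 change -0.14), and Suz12, the scaffold subunit, 15.1 ± 1.2 and 15.9 ± 0.16 FPKM (log2 change 0.08). The subunits of this complex therefore had estimates on both sides of 0. Ezh1, the catalytic relative more typical of resting cells, was at 2.34 ± 0.329 and 2.44 ± 0.103 FPKM.

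All 5 H3K36 writers had log2 changes above 0, with a median of 0.05, and none was called. These are long genes, with a median summed exon length of 16510 bases. Change went with exon length across the members (below), so residue and length cannot be told apart here. Ash1l, a Trithorax-group dimethylase of H3K36, stood at 1.94, 1.97 and 2.79 FPKM in control and at 2.50, 2.71 and 3.17 FPKM in knockout libraries. Control replicate 3 lay inside the knockout range, and without it the log2 change was 0.36. The means were 2.23 ± 0.482 and 2.79 ± 0.342 FPKM (SD, n = 3 each), and their ratio was 1.25 (log2 change 0.24, SE 0.12, adjusted p = 0.394 by limma); the gene lies at chr3:88950622-89079375, plus strand. The dimethylase genes Nsd1, Nsd2 and Nsd3 had log2 changes of 0.05, 0.04 and 0.07, and Setd2, the gene for the trimethylase that travels with RNA polymerase II, 0.02. With TPM the 5 genes were again above 0, where 34.4% of all genes were below 0. With quantile normalisation, with a sex score, or without control replicate 1 or 2 or knockout replicate 2 or 3, 1 of the 5 was below 0.

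Dot1l, the gene for the main H3K79 methyltransferase, stood at 5.97, 6.02 and 6.46 FPKM in control and at 5.50, 6.61 and 6.66 FPKM in knockout libraries. The knockout libraries spanned the whole control range (log2 change 0.02, limma adjusted p = 0.944). Dot1l lies at chr10:80755206-80795461, plus strand.

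Of the 5 SET-domain genes with other or several substrates, Smyd2 was far the most abundant. Its enzyme methylates histones and also cytoplasmic proteins of muscle, including HSP90. Smyd2 stood at 42.2, 39.7 and 36.02 FPKM in control and at 35.0, 38.3 and 32.8 FPKM in knockout libraries, so the groups overlapped (ratio 0.900, log2 change -0.15, limma adjusted p = 0.436). Without control replicate 1 or without knockout replicate 3 the log2 change was -0.10. It lies at chr1:189880492-189922363, minus strand, and 30% of its exon bases lie under exons of another gene. Smyd3, Prdm16 and Kmt2e had log2 changes of -0.07, -0.05 and -0.03, and Smyd5 had 0.03. Prdm16, a regulator of compact myocardium, was at 1.14 ± 0.149 and 1.07 ± 0.167 FPKM (SD, n = 3 each).

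Among the erasers, Kdm3a had the smallest p-value of all members. Its JmjC enzyme removes mono- and dimethylation from H3K9 and is induced by hypoxia. Kdm3a stood at 8.86, 9.13 and 8.40 FPKM in control and at 7.60, 6.90 and 7.81 FPKM in knockout libraries, and the groups did not overlap. The means were 8.80 ± 0.374 and 7.44 ± 0.477 FPKM (SD, n = 3 each), a ratio of 0.846, with a log2 change of -0.22 (SE 0.07, unadjusted p = 0.0168, limma adjusted p = 0.193). Kdm3a lies at chr6:71588972-71632990, minus strand. Its relatives Kdm3b and Jmjd1c had log2 changes of 0.09 and 0.03, and Phf2, which encodes a JmjC demethylase with a PHD finger, -0.02. For Kdm3b, 24.6% of exon bases lie under exons of another gene.

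Kdm4d was listed at 0.0189, 0 and 0.0905 FPKM in control and at 0.0193, 0 and 0 FPKM in knockout libraries, which is 0 to 5 reads, so no fold was computed. The other KDM4 genes encode erasers of both H3K9 and H3K36 trimethylation. Kdm4b stood at 11.9, 14.6 and 11.2 FPKM in control and at 10.6, 11.7 and 11.4 FPKM in knockout libraries, which overlapped, with control replicate 2 the highest (log2 change -0.14, limma adjusted p = 0.532). Without that library the log2 change was -0.04, and without control replicate 3 it was -0.21. Kdm4b lies at chr17:56326062-56402870, plus strand. Kdm4a had 14.1 ± 0.834 and 13.4 ± 0.323 FPKM, and Kdm4c 5.04 ± 0.466 and 5.47 ± 0.0633 FPKM (SD, n = 3 each).

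The H3K4 erasers on the list, which remove the trimethylation that LSD1 cannot act on, had log2 changes of 0.07 and 0.03. Kdm5a stood at 4.08, 4.49 and 5.14 FPKM in control and at 4.69, 4.83 and 4.93 FPKM in knockout libraries (limma adjusted p = 0.75). All its knockout libraries lay inside the control range, and the log2 change was 0.0032 without control replicate 1 and 0.14 without control replicate 3. Kdm5a lies at chr6:120364124-120444574, plus strand. Kdm5b had 4.86 ± 0.14 and 4.997 ± 0.473 FPKM (SD, n = 3 each).

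Both erasers of H3K27 methylation had wide overlap. Kdm6b, the gene for JMJD3, stood at 5.35, 5.52 and 6.76 FPKM in control and at 5.76, 6.31 and 6.15 FPKM in knockout libraries (log2 change 0.05, limma adjusted p = 0.856). Kdm7a, whose enzyme acts on dimethylated H3K9 and H3K27, stood at 1.26, 1.48 and 1.71 FPKM in control and at 1.44, 1.21 and 1.87 FPKM in knockout libraries (log2 change 0.01, limma adjusted p = 0.979). The genes lie at chr11:69398508-69413675 and chr6:39136623-39206789, each on the minus strand.

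The 3 genes grouped as H3K36 erasers had log2 changes below 0, with a median of -0.14. Kdm2b, whose protein also binds unmethylated CpG islands and recruits a Polycomb complex to them, stood at 3.67, 3.45 and 3.33 FPKM in control and at 3.16, 2.97 and 3.11 FPKM in knockout libraries. The groups did not overlap, and the log2 change was -0.14 (SE 0.07, unadjusted p = 0.0946, limma adjusted p = 0.396). Kdm2b lies at chr5:122870665-122989823, minus strand. Kdm8 had 3.27 ± 0.791 and 2.75 ± 0.165 FPKM (SD, n = 3 each), and Kdm2a was almost equal, at 5.12 ± 0.434 and 5.10 ± 0.382 FPKM. Under TPM 2 of these 3 genes were below 0.

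**Figure D2:**
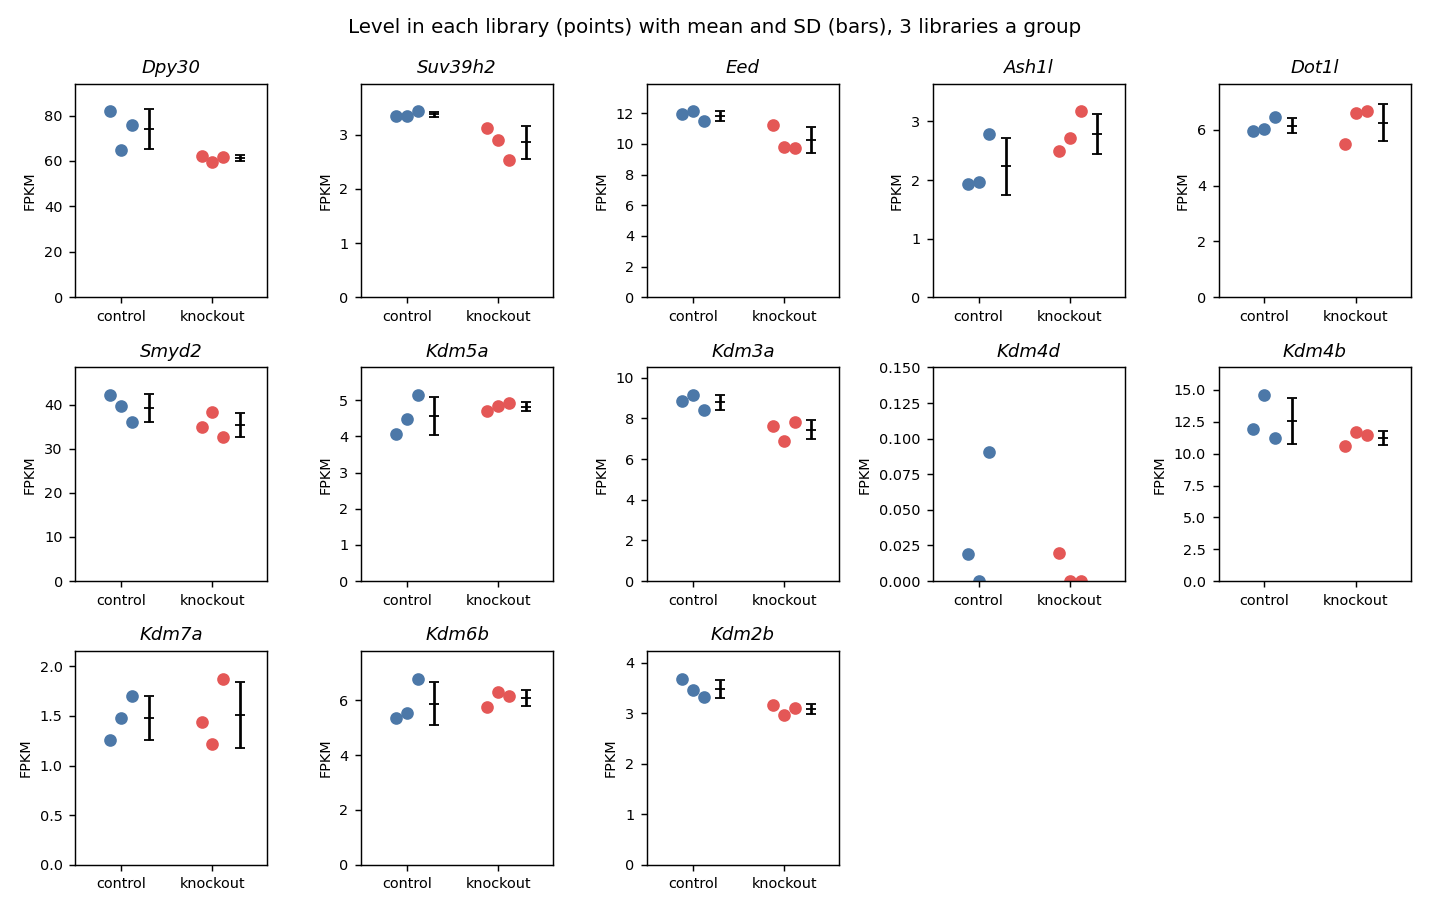
Level in FPKM (y axis, from 0) of the 13 genes given library by library, in control and knockout ventricles (x axis). Each point is 1 library and the bars give the mean and SD of 3 libraries, left out for Kdm4d, which was listed at 0 in some libraries. Dpy30, Suv39h2, Eed, Kdm3a and Kdm2b have all knockout points under all control points.

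The promoters of the 3 members with an unadjusted p under 0.05 are shown because these genes had the smallest p-values, although none was called. Each run gives the 250 bases before the RefSeq start on the gene's strand, from RefSeq sequence of GRCm38.p6, with CG dinucleotides in capitals. They lie at chr17:74316434-74316683, chr7:89980977-89981226 and chr6:71632918-71633167, all on the minus strand. For a gene with several entries, the entry with most GENCODE basic transcripts starting within 250 bases was taken. The Dpy30 window lies wholly inside the gene span given above, so it precedes an internal start and not the outermost start.
Dpy30: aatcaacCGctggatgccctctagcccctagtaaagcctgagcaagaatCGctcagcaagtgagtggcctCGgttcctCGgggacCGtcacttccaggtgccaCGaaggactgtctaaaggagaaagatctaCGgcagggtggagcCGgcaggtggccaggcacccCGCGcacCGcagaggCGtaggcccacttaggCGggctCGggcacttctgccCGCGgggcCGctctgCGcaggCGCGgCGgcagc
Eed: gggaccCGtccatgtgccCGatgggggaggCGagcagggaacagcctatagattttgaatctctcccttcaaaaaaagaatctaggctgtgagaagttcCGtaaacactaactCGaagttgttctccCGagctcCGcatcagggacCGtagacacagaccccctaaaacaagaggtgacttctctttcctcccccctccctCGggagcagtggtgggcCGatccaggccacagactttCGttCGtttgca
Kdm3a: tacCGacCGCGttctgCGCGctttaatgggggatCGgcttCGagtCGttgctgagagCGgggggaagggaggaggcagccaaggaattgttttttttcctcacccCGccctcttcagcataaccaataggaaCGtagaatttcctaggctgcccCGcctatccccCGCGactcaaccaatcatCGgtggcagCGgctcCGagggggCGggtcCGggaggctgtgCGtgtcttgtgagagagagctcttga
These windows hold 21, 12 and 20 CG dinucleotides and have a GC content of 66%, 54.4% and 59.6%.

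A RefSeq promoter entry was found for 33 of the 48 members. Their median was 22 CG dinucleotides in 250 bases, against 16 over 10024 tested genes with an entry, and 30 of 33 (90.9%) held at least 10, against 75.2% of all. On both strands, GGGCGG, the core of SP and KLF sites, was found in 23 of 33 member promoters (69.7%) and in 61.1% of all. CCAAT, the NFY core, was found in 11 (33.3%) and in 36.4% of all, and CCGGAAG, an ETS core, in 3 (9.09%) and in 14.1% of all. TATAAA was found in 0 of 33 and in 6.36% of all. These are letter matches in a short window and describe the sequences only.

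The differences went with the summed exon length of the gene across the members. Over the 47 tested genes the Spearman correlation of log2 change with summed exon length was 0.64, and over 14143 tested genes with a length it was 0.15. Of the 23 members longer than 8225 bases, 16 had a log2 change above 0, and of the 24 at or below that length, 6 did. Among all genes, 40.4% of those above that length and 56.4% of those at or below it were below 0. The coefficient over the members ran from 0.51, with a sex score as covariate, to 0.70, without knockout replicate 1. The core H3K4 subunits were short, with a median of 3835 bases, and the catalytic H3K4 genes long, with a median of 12068 bases, so role and length cannot be told apart here.

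The tendency differed between libraries of 1 group. Taking each library's deviation from the mean of the 6, the coefficient with length over the members was -0.56, -0.49 and 0.25 in control replicates 1, 2 and 3 and -0.00, 0.46 and 0.70 in knockout replicates 1, 2 and 3. Over the members, control replicate 3 thus had the sign of knockout replicates 2 and 3. Over all tested genes with a length, control replicate 3 did not share that sign. There the coefficients were -0.17, 0.02 and -0.06 in control and -0.06, 0.09 and 0.19 in knockout replicates 1, 2 and 3. The genes share the same 6 libraries and are not independent, so these coefficients are descriptions. Whether length, library preparation or genotype set them was not tested.

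**Figure D3:**
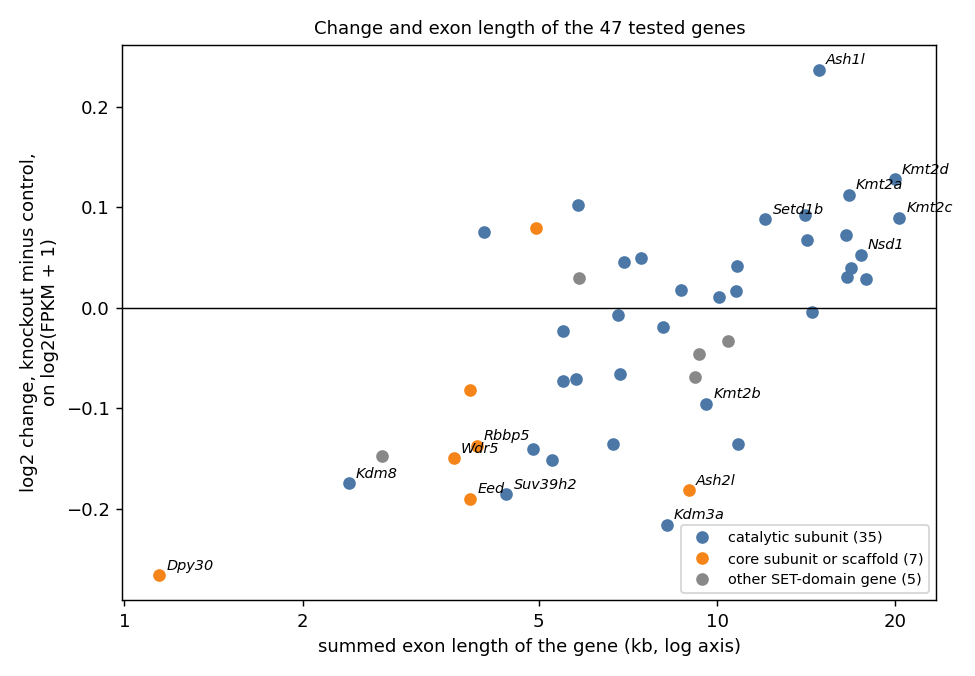
Log2 change between knockout and control (y axis) against summed exon length in kb (x axis, log scale) for the 47 tested genes, coloured by role. Short genes such as Dpy30 lie low and long genes such as Ash1l and Kmt2d lie high, with a Spearman correlation of 0.64.

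Related enzymes with overlapping activity were also compared by their ratio within each library, for 15 pairs and with no test. In 12 pairs the ratios of the groups overlapped. Kdm3a over Kdm3b had a mean log2 ratio of 1.11 ± 0.091 in control and 0.75 ± 0.201 in knockout libraries (SD, n = 3 each), and the groups did not overlap. Kdm3a enters this ratio with the values already given. Kdm4a over Kdm4c had 1.49 ± 0.134 and 1.29 ± 0.0194, also lower in each knockout library. Kmt2a over Kmt2b had -1.18 ± 0.202 and -0.87 ± 0.0858, higher in each knockout library. For single genes, the shares without overlap were 11% above and 10.4% below. These are not shares for ratios, and no share over other gene pairs was computed.

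The dominant relative was the same in both genotypes for the pairs without overlap and for the other pairs that were far from equal. Ezh1 was at 0.197 of the Ezh2 level in control and 0.229 in knockout libraries. Suv39h1 was 2.49-fold and 2.62-fold above Suv39h2, and Smyd2 27.7-fold and 27.1-fold above Smyd3. Kdm5a and Kdm5b were near equal, with ratios of 0.936 and 0.967.

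**Figure D4:**
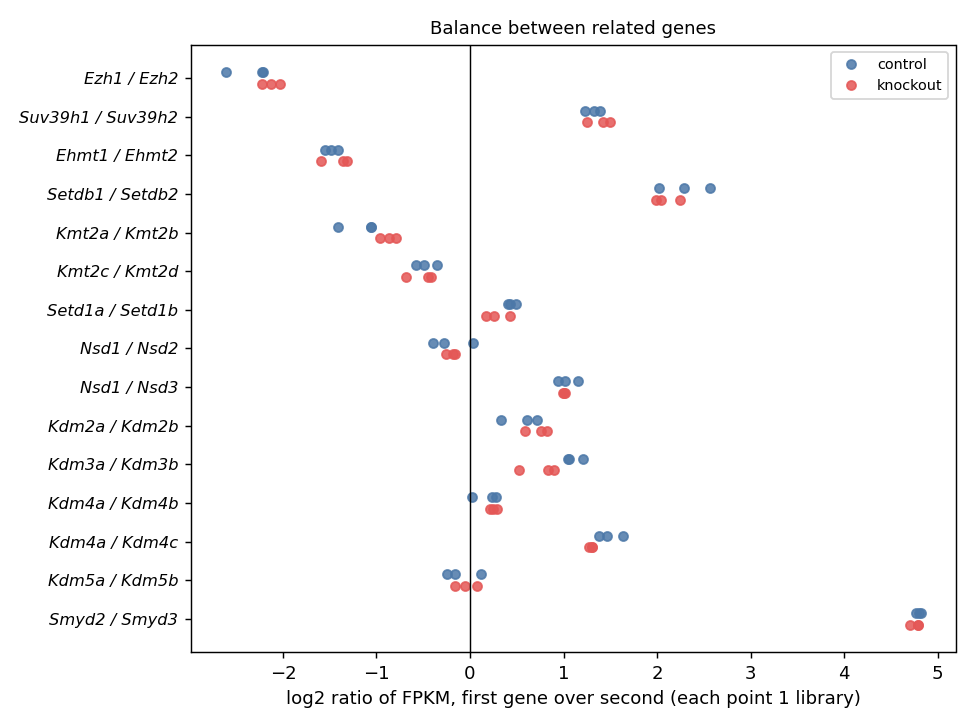
Log2 ratio of FPKM of the first gene over the second (x axis) for 15 pairs of related genes (y axis), each point 1 library. Kdm3a / Kdm3b and Kdm4a / Kdm4c have knockout points below and Kmt2a / Kmt2b above all control points, and the other 12 pairs overlap.

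The partners of these enzymes were not called either. Lists of other COMPASS and PRC2 subunits, H3K9 partners, further SET-domain and JmjC genes and sex-linked demethylases named 55 genes, of which 49 were tested, with 0 called higher, 0 lower and 2 with an unadjusted p under 0.05. Phf19, an accessory PRC2 subunit that binds H3K36 methylation, was at 1.01, 1.27 and 1.01 FPKM in control and at 2.20, 1.66 and 1.79 FPKM in knockout libraries, with no overlap. Its log2 change was 0.46 (SE 0.11), with a limma adjusted p of 0.0836, and on recovered reads limma-voom called it higher, with a 1.72-fold change (interval 1.32 to 2.25) and an adjusted p of 0.0298. Setd6, which methylates the RelA subunit of NF-kappaB, had 6.59 ± 1.2 and 4.89 ± 0.51 FPKM (SD, n = 3 each; limma adjusted p = 0.228). In the other lists the smallest limma adjusted p-values were 0.348 for Paxip1, a subunit of the Kmt2c and Kmt2d complexes, 0.428 for Cbx3, which encodes the H3K9 methyl reader HP1 gamma, and 0.364 for Jmjd6.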

How the data were processed

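Per the labels' protocols, RNA came from a TRIzol extraction and libraries from a NEBNext Ultra kit without strand marking. The submitters' processing notes list HISAT2 2.0.5, featureCounts 1.5.0-p3, fastp, CASAVA and the mm10 build. The annotation release and featureCounts settings were not given in the sources used here. Per the authors, the deposited table holds FPKM values for 54532 gene IDs in 6 libraries and holds no read counts. GENCODE M21 (GRCm38, the same assembly as mm10) gave symbols, coordinates in the text and summed exon lengths for 54495 IDs. Exon length times FPKM gave whole reads within 0.02 for 98.1% to 98.5% of genes under 30 reads.

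A two-sided limma test (version 3.58.1, R 4.3.3) was run on log2(FPKM + 1) for genes averaging 0.5 FPKM or more, with genotype alone as a term, a mean-variance trend and Benjamini-Hochberg adjustment over 14149 genes at 0.05. Fold changes on this scale understate those of low genes. The alternatives used another pseudocount (0.1), filter, scaling (TPM, quantile, without haemoglobin and mitochondrial genes), variance trend, library weights, a sex score, limma-voom on the recovered reads, a replicate block and each library left out. The procedure was tested on simulated data, where it called 61.7% of 1.5-fold and 92% of 2-fold changes. Smaller changes, of the size estimated for the members, were not simulated, so the simulation does not show how often those would be called. Libraries differed from each other by more than sampling noise, and each was counted as 1 replicate. That spread does not show that they came from separate embryos. Members and lists were chosen with earlier results of these data known. Values by library are given for members with an unadjusted p under 0.05 and no overlap, the smallest p in each residue class, and the highest and lowest member. Other tools were matplotlib 3.10.9, numpy 2.4.6, pandas 2.3.3 and Python 3.11.15.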

Additional observations from a re-analysis of the deposited data

How the results depend on the processing

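None of the 47 tested members was called by limma under any of the 17 alternatives, all of them planned, and the smallest adjusted p in any of them was 0.0881 (Dpy30 without control replicate 2). Members with an unadjusted p under 0.05 numbered from 0 (without knockout replicate 2) to 9 (without control replicate 3). The sign was kept in every alternative that gave a value by 28 of 47 members, 16 lower and 12 higher. Counts over all genes moved more. Higher calls, 270 in the fit described above, were 110 without a filter on low values, 132 with a mean of at least 5 FPKM, 93 with a sex score as covariate and 419 by limma-voom on recovered reads. Lower calls, 66 there, were 12 without a filter, 40 with TPM, 112 with weighted libraries and 23 with the sex covariate. Leaving out 1 library gave 111 to 273 higher and 23 to 108 lower calls. Of the other histone lysine methylation genes, limma-voom called 1 higher (Phf19). Dot1l reversed to -0.0215 with the sex score and ran from -0.0236 to 0.0947 when a library was left out. Kdm7a reversed to -0.0403 with quantile normalisation and -0.122 with the sex score, and ran from -0.0909 to 0.0964 when a library was left out. Kdm6b ran from -0.00933 to 0.136 when a library was left out. The causes were not tested. The deviations of same-numbered libraries correlated at -0.00, 0.14 and 0.16 over genes. The values for replicates 2 and 3 were the highest between any control and any knockout library. Control replicate 1 correlated best with knockout replicate 2 (0.08). These values do not settle whether the numbers pair the samples, and the fit described above used no pairing. With a replicate block, 220 genes were called higher and 64 lower, with 0 members called and 7 members at an unadjusted p under 0.05. Intervals cover the spread between these 3 libraries a group only, and the fewest reads behind a tested member in a library were 103 (Setdb2, control replicate 1).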

Other observations

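The sex-linked demethylase genes are the X-linked Kdm5c and Kdm6a, which escape X inactivation, and their Y-linked copies Kdm5d and Uty. Kdm5c stood at 13.0, 14.4 and 12.6 FPKM in control and at 11.99, 12.76 and 17.37 FPKM in knockout libraries, and Kdm6a at 3.005, 4.163 and 3.34 FPKM and at 3.19, 3.51 and 5.35 FPKM. Knockout replicate 3 was the highest for both. Kdm5d stood at 2.14, 2.20 and 2.10 FPKM in control and at 1.96, 2.01 and 0 FPKM in knockout libraries, and Uty at 2.46, 2.58 and 2.89 FPKM and at 2.99, 2.44 and 0 FPKM. Knockout replicate 3, the library with the high sex score, was again the one that stood apart, here at 0. None of the 4 genes was called by limma, and the smallest adjusted p among them was 0.491.

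With X- and Y-linked copies added to their autosomal relatives, the KDM5 family summed to 24.0, 26.1 and 24.6 FPKM in control and to 23.5, 24.2 and 27.8 FPKM in knockout libraries, where knockout replicate 3 was the highest of the 6. The KDM6 family with Uty summed to 10.8, 12.3 and 13.0 FPKM and to 11.9, 12.3 and 11.5 FPKM, so the KDM6 knockout sums all lay inside the control range.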
